A study of Aspergillus niger with 16 samples.

Results

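Transcript levels on sugar beet pectin (SBP) and on D-galacturonic acid (GA) were compared in mycelium of the filamentous fungus *Aspergillus niger* that lacks *gaaR*, the gene of the activator of GA use. The comparison takes the 4 libraries labelled as the deletion strain (ΔgaaR, CBS 141258) at 2 h, of 16 in all: 2 on 1% SBP and 2 on 25 mM GA. Libraries of the reference strain (CBS 141257) at 2 h, again 2 on SBP and 2 on GA, were used to test where the strains differed. In both strains spores first grew in complete medium with 2% fructose during 16 h. Washed mycelium was then moved to minimal medium of pH 6 and shaken at 30 °C and 250 rpm with SBP or GA as carbon source. The labels give no further genotype for either strain, and do not say how many transformants the deletion strain stands for or whether replicates came from separate cultures. The p-values below therefore cover only the scatter between replicate libraries, part or all of which may be technical. That scatter was estimated from all 16 libraries together, those of later times included.

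Pectin is a plant cell wall polysaccharide whose backbone holds long stretches of GA, called homogalacturonan, and stretches of rhamnogalacturonan that carry arabinan and galactan side chains. *A. niger* secretes enzymes that free GA, L-arabinose and galactose from it, takes up GA through the transporter GatA and breaks it down in the cytosol with GaaA, GaaB, GaaC and GaaD. The activator GaaR drives these genes when a GA breakdown product releases it from the repressor GaaX. L-arabinose and xylose act through other activators, AraR and XlnR. GA is thus a single sugar acid of the backbone, whereas pectin also carries the neutral sugars of the side chains.

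Total expected counts were 4385237 and 3698114 reads in the SBP libraries of the deletion strain and 3372824 and 4265237 reads in its GA libraries, within the 3203011 to 4574019 reads of all 16. At 2 h replicates of the deletion strain were less alike than those of the reference strain. On SBP 817 of 7336 genes (11.1%) were over 2-fold apart between the deletion libraries, against 147 (2.0%) in the reference strain. On GA the numbers were 724 of 7282 genes (9.9%) in the deletion strain and 180 (2.5%) in the reference strain. This did not hold later on SBP. The share was 2.5% in the deletion strain and 2.1% in the reference strain at 8 h. It was 1.4% in the deletion strain and 6.1% in the reference strain at 24 h. Because the p-values use a spread pooled over all groups, they may understate the scatter between the deletion libraries at 2 h.

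The deleted gene itself was looked at first. *gaaR* (NRRL3_08195) had 0 and 12 reads in the SBP libraries of the deletion strain, against 30 and 1 reads in its GA libraries. SBP replicate 2 and GA replicate 1 thus carried *gaaR* reads above a floor of 3, while the other two libraries did not. At 8 h on SBP both libraries labelled as the deletion strain had 24 reads of it, and at 24 h both had 0. In FPKM (reads scaled to coding length and library total) the highest of these levels was 3.92, in GA replicate 1 at 2 h, whereas the reference strain had 234 and 215 FPKM on SBP and 24.1 and 28.3 FPKM on GA. The same GA library also had the highest levels of the exopolygalacturonase genes *pgaX* and *pgxB* among the 4 deletion libraries. The part of these reads in the results was not tested, so values without a library are given beside a result where leaving it out ends a call or moves a called change by over 1.5 times.

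Of 10003 genes tested, 3103 (31.0%) were called at an adjusted p under 0.05 in edgeR's quasi-likelihood test with Benjamini-Hochberg adjustment. Transcripts of 1610 genes (16.1%) were higher on SBP and those of 1493 (14.9%) were lower. A change of at least 2-fold was called for 1094 genes (10.9%) upward and 1056 (10.6%) downward, and 49 genes upward and 63 downward changed at least 16-fold. The median log2 fold change over all genes was 0.03, and the median size of a called change was 1.25. Among the 100 genes with the highest mean FPKM, 16 were called higher and 28 lower. In 1528 of the 3103 genes (49.2%) the call and direction held without each of the 4 libraries in turn, and none of the called genes changed sign. Of these 1528 genes, 1368 changed at least 2-fold, as many upward as downward. With only the 4 libraries compared in the fit, which leaves the spread to be estimated from them alone, 1413 genes were called, 642 higher and 771 lower. Because RNA was measured in bulk mycelium, fewer cells carrying a transcript and less of it per cell cannot be told apart.

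**Figure D1:**
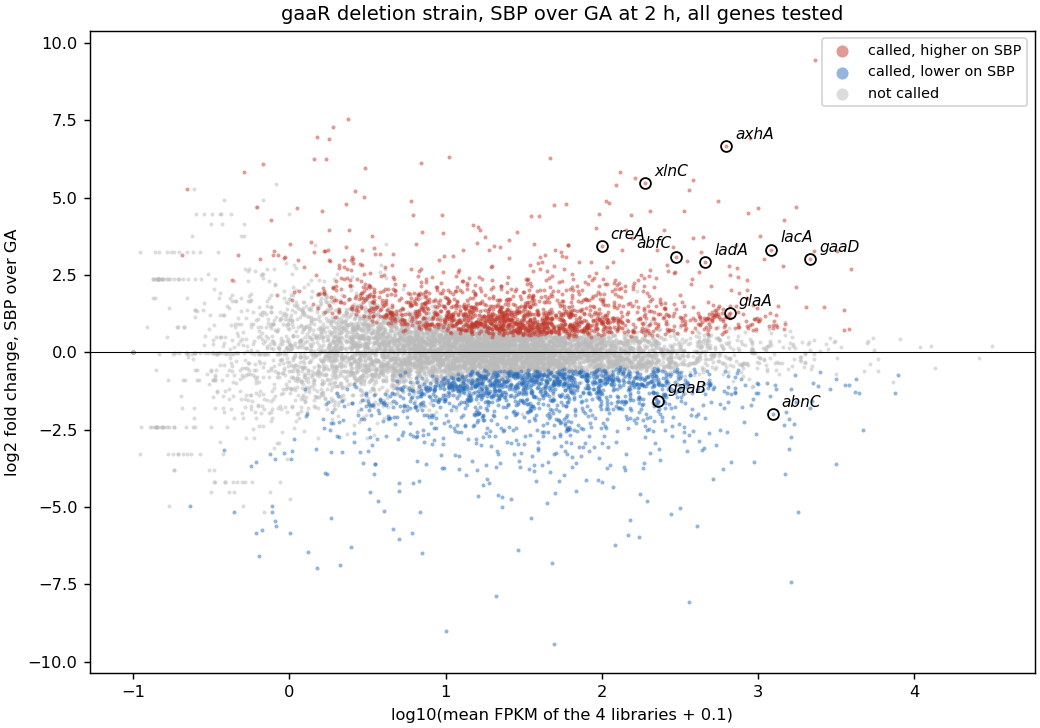
Each point is 1 of the genes tested in the gaaR deletion strain, with the mean FPKM of the 4 libraries (log10 after adding 0.1) on the x axis and the log2 fold change of SBP over GA on the y axis. Red points were called higher on SBP (1610), blue points lower (1493), and circles mark named genes such as *axhA* at 6.65 and *abnC* at -2.0.

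In the GA pathway *gaaD* (NRRL3_10050) was higher on SBP and *gaaB* lower. Of its 5 genes 1 was called higher, 1 lower and 3 were not called, beside 16.1% and 14.9% of all genes called higher and lower, with a median log2 fold change of -0.19. *gaaD* encodes L-glyceraldehyde reductase, the last step of the pathway, an enzyme also known as the L-arabinose reductase LarA. Its transcript had 4325 and 3289 FPKM on SBP, against 641 and 373 FPKM on GA. Both SBP libraries lay far above both GA libraries, and the gene rose with a log2 fold change of 3.01 (SE 0.36, adjusted p = 1.5e-05), or 8.06-fold. On SBP *gaaD* accounted for most of the summed FPKM of the 5 genes, which was 4505 and 3689, against 1408 and 767 on GA.

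*gaaB* (NRRL3_06890), the gene of L-galactonate dehydratase, had 52.3 and 175 FPKM on SBP and 496 and 193 FPKM on GA. The SBP libraries were both lower, but the upper SBP value lay close to the lower GA value. The gene fell by 1.56 on the log2 scale (SE 0.41, adjusted p = 0.0091), a call that ended without SBP replicate 1 (change -1.01, adjusted p = 0.072) or without GA replicate 1 (change -0.93, adjusted p = 0.12). Without SBP replicate 2, a library with *gaaR* reads, the change was -2.47 and was called. With GA replicate 1, the other library with *gaaR* reads, left out as well it was -1.84. *gaaA* (NRRL3_05650), which encodes D-galacturonate reductase at the first step, had 51.3 and 89.1 FPKM on SBP and 149 and 85.7 FPKM on GA, so the groups overlapped. It missed the threshold at a log2 fold change of -0.70 (SE 0.30, adjusted p = 0.089). DESeq2 called it at -0.73 (adjusted p = 0.043), while limma and the other scalings in edgeR did not. *gaaC* (NRRL3_05649), the gene of the 2-keto-3-deoxy-L-galactonate aldolase, had 69.6 and 116 FPKM on SBP and 104 and 108 FPKM on GA, with a log2 fold change of -0.19 (95% interval -0.88 to 0.50). The transporter gene *gatA* (NRRL3_00958) had 6.65 and 18.6 FPKM on SBP, against 18.8 and 7.86 FPKM on GA. Its groups overlapped almost wholly, and its log2 fold change was -0.04 with a 95% interval of -0.77 to 0.68.

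Neither GA regulator was called. *gaaX* (NRRL3_08194), the repressor gene that lies beside *gaaR* in tag order, had 15.7 and 20.8 FPKM on SBP and 25.5 and 15.3 FPKM on GA. Its groups overlapped and its log2 fold change was -0.10 (95% interval -0.53 to 0.34). The log2 fold change of *gaaR* itself was -1.40 (SE 0.94, adjusted p = 0.29), from the few reads given above, and it was 2.43 without GA replicate 1.

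**Figure D2:**
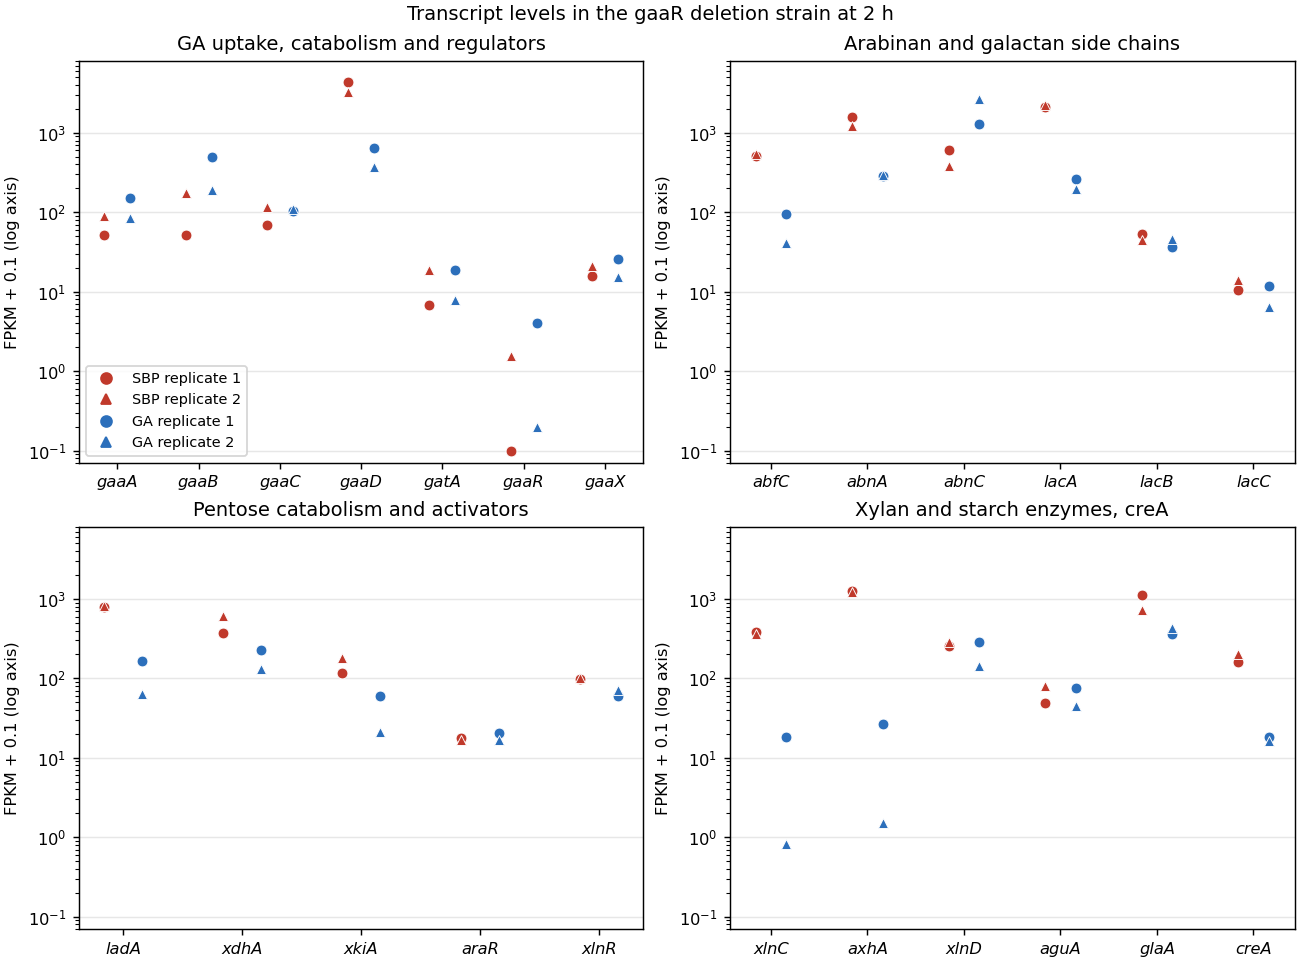
Levels of 24 named genes in the 4 libraries of the deletion strain at 2 h, as FPKM plus 0.1 on a log axis, with SBP in red on the left of each gene and GA in blue on the right; circles are replicate 1 and triangles replicate 2. SBP and GA points separate widely for *gaaD*, *lacA*, *axhA* and *creA*, and overlap for *gaaC*, *gatA* and *araR*.

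Genes for enzymes that act on the homogalacturonan backbone were low on both carbon sources. Their summed FPKM over 11 genes was 44.9 and 62.8 on SBP and 119 and 48.4 on GA, groups that overlap. Among the 11, 1 was called higher on SBP and 1 lower, and 9 were not called, beside 16.1% and 14.9% of all genes called higher and lower. *pgaB* (NRRL3_05859) encodes an endopolygalacturonase, which cuts within the chain. It had 9.60 and 12.4 FPKM on SBP and 4.07 and 2.14 FPKM on GA. Both SBP libraries were higher, and the gene rose with a log2 fold change of 1.89 (SE 0.43, adjusted p = 0.0032).

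*pelB* (NRRL3_08767), the gene of a pectin lyase, went the other way, with 7.56 and 7.10 FPKM on SBP and 14.5 and 16.6 FPKM on GA. The groups did not overlap, and the gene fell by 1.04 on the log2 scale (SE 0.34, adjusted p = 0.027). That call ended without SBP replicate 2 (adjusted p = 0.15) and without GA replicate 2 (adjusted p = 0.19). The other pectin lyase gene, *pelA* (NRRL3_00965), had 12.9 and 9.23 FPKM on SBP and 9.06 and 10.4 FPKM on GA, with overlapping groups and a log2 fold change of 0.24 (95% interval -0.50 to 0.98).

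The exopolygalacturonase genes, whose enzymes release single GA units from chain ends, differed more between replicates than between carbon sources. *pgaX* (NRRL3_03144) had 3 and 53 reads on SBP and 209 and 9 reads on GA, and *pgxB* (NRRL3_08281) had 7 and 25 reads on SBP and 109 and 3 reads on GA. In both genes the higher library of each pair was the one with *gaaR* reads. In FPKM the same order held for *gaaA*, *gaaB*, *gatA*, *gaaX* and *pgxC*, but not for *gaaC* or *gaaD*. It also held for genes outside the GA pathway such as *xkiA*, *xdhA* and *aguA*, though not for *abnA* or *abnC*. Its cause was not tested. The log2 fold change was -2.02 for *pgaX* (SE 0.91, adjusted p = 0.11) and -1.86 for *pgxB* (SE 0.93, adjusted p = 0.15). Without GA replicate 1 it was 1.6 for *pgaX* and 2.35 for *pgxB*, and without SBP replicate 2 as well it was -1.55 for *pgaX* and 1.19 for *pgxB*. The direction thus turned on GA replicate 1 in *pgxB*, and on both libraries with *gaaR* reads in *pgaX*. The remaining gene of this kind, *pgxC* (NRRL3_05260), had 2.90 and 3.25 FPKM on SBP and 6.44 and 1.75 FPKM on GA, with a log2 fold change of -0.28 (95% interval -1.17 to 0.61).

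The endopolygalacturonase genes *pgaI* (NRRL3_02571) and *pgaE* (NRRL3_02835) were not called either. *pgaI* had 5.33 and 3.42 FPKM on SBP and 5.33 and 7.79 FPKM on GA, at a log2 fold change of -0.54 (SE 0.54). *pgaE* had 0.80 and 1.90 FPKM on SBP and 2.34 and 2.46 FPKM on GA, at a log2 fold change of -0.83 (SE 0.57). Of *pgaC* (NRRL3_08805) no library held over 3 reads, so no fold is given. The pectin methylesterase genes, for enzymes that remove methyl groups before the chain is cut, were low as well, and *pmeA* was near the limit of detection. *pmeA* (NRRL3_08325) had 3 and 7 reads on SBP and 2 and 1 reads on GA, and *pmeC* (NRRL3_07470) had 2.78 and 6.89 FPKM on SBP and 4.82 and 4.52 FPKM on GA, at a log2 fold change of 0.04 (95% interval -1.09 to 1.16).

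Rhamnogalacturonan and xylogalacturonan enzymes were at a few reads per library. *rglA* (NRRL3_00684), the gene of a rhamnogalacturonan lyase, had 0 and 0 reads on SBP and 4 and 9 reads on GA. Against a floor of 3 reads per library this is at least 2.20-fold lower on SBP. It was called (adjusted p = 0.041), but not without either SBP library or without GA replicate 2, with adjusted p-values of 0.12, 0.13 and 0.16. The exorhamnogalacturonase gene *rgxB* (NRRL3_08631) had 2 and 7 reads on SBP and 2 and 1 reads on GA. The xylogalacturonan hydrolase gene *xghA* (NRRL3_07469) had 11 and 5 reads on SBP and 15 and 1 reads on GA. The library with *gaaR* reads was the higher one on GA but the lower one on SBP. Neither gene was called.

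Among genes for side chain enzymes *lacA*, *abfC* and *abnA* were higher on SBP and *abnC* was lower. Of 6 genes 3 were called higher on SBP, 1 lower and 2 were not called, beside 16.1% and 14.9% of all genes called higher and lower, with a median log2 fold change of 1.41. *lacA* (NRRL3_02630), which encodes a beta-galactosidase, had 2133 and 2242 FPKM on SBP and 259 and 198 FPKM on GA. Both SBP libraries stood far above both GA libraries, and the gene rose with a log2 fold change of 3.32 (SE 0.28, adjusted p = 7.2e-07), or 9.98-fold. *abfC* (NRRL3_10865), an arabinofuranosidase gene, had 512 and 543 FPKM on SBP and 93.7 and 40.6 FPKM on GA. The SBP libraries agreed closely while the GA libraries were over 2-fold apart, and the gene rose with a log2 fold change of 3.07 (SE 0.28, adjusted p = 1.5e-06).

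The 2 endoarabinanase genes, whose enzymes cut the arabinan chain internally, moved apart. *abnA* (NRRL3_00092) had 1600 and 1224 FPKM on SBP and 282 and 294 FPKM on GA. It rose with a log2 fold change of 2.35 (SE 0.38, adjusted p = 0.00022), and the groups did not overlap. *abnC* (NRRL3_05407) had 599 and 379.3 FPKM on SBP and 1291 and 2682 FPKM on GA. Here both GA libraries were higher, although they lay over 2-fold apart, and the gene fell by 2.0 on the log2 scale (SE 0.40, adjusted p = 0.0013). Its change was -1.17 without GA replicate 2 and -2.54 without SBP replicate 1, called each time.

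The other beta-galactosidase genes did not follow *lacA*. *lacB* (NRRL3_02479) had 52.5 and 45.2 FPKM on SBP and 36.8 and 45.7 FPKM on GA, at a log2 fold change of 0.28 (95% interval -0.25 to 0.81). *lacC* (NRRL3_11738) had 10.3 and 13.8 FPKM on SBP and 11.8 and 6.34 FPKM on GA, at a log2 fold change of 0.48 (95% interval -0.09 to 1.04). Both intervals end below the change of *lacA*.

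Pentose breakdown carries L-arabinose and xylose to the pentose phosphate pathway. Of 5 genes for it, its activators included, 4 were called higher on SBP, none lower and 1 was not called, beside 16.1% and 14.9% of all genes called higher and lower, with a median log2 fold change of 1.5. *ladA* (NRRL3_02523) encodes L-arabitol dehydrogenase of the L-arabinose branch and had 784 and 821 FPKM on SBP, against 165 and 63.8 FPKM on GA. The SBP libraries lay together above both GA libraries, and the gene rose with a log2 fold change of 2.92 (SE 0.34, adjusted p = 1.1e-05).

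The next enzymes are shared by L-arabinose and xylose. *xkiA* (NRRL3_04471), the xylulokinase gene, had 118 and 178 FPKM on SBP and 59.8 and 20.9 FPKM on GA and rose with a log2 fold change of 1.96 (SE 0.33, adjusted p = 0.00032). *xdhA* (NRRL3_09204), the xylitol dehydrogenase gene, had 373 and 603 FPKM on SBP and 225 and 131 FPKM on GA and rose with a log2 fold change of 1.5 (SE 0.25, adjusted p = 0.00028). Neither gene's groups overlapped. In *ladA* and *xkiA* the higher GA value was that of replicate 1, and their changes were 3.55 and 2.70 without it.

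Of the activators of this pathway, *araR* (NRRL3_07564) had 17.6 and 16.6 FPKM on SBP and 20.4 and 16.7 FPKM on GA. Its 4 values were nearly equal, at a log2 fold change of -0.06 (95% interval -0.46 to 0.34). *xlnR* (NRRL3_04034) had 96.9 and 100 FPKM on SBP and 59.1 and 72.2 FPKM on GA. It rose with a log2 fold change of 0.61 (SE 0.21, adjusted p = 0.037), a call that ended without SBP replicate 1 (change 0.49, adjusted p = 0.16) or GA replicate 1 (change 0.35, adjusted p = 0.29). Without GA replicate 2 it was 0.93 and was called.

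Among 5 genes for xylan and cellulose enzymes 2 were called higher on SBP and none lower, beside 16.1% and 14.9% of all genes, and the median log2 fold change was 0.42. *axhA* (NRRL3_08707) encodes an arabinoxylan arabinofuranohydrolase, which takes arabinose off xylan. It had 1240 and 1222 FPKM on SBP and 26.4 and 1.41 FPKM on GA. *xlnC* (NRRL3_08708), an endoxylanase gene with the next tag, had 382 and 358.1 FPKM on SBP and 18.4 and 0.71 FPKM on GA. On SBP the replicates of both genes were nearly equal, while on GA replicate 1 was over 10-fold above replicate 2.

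The log2 fold change was 6.65 for *axhA* (SE 0.75, adjusted p = 8.4e-06) and 5.47 for *xlnC* (SE 0.70, adjusted p = 3.2e-05). Without GA replicate 1 it was 9.65 for *axhA* and 8.87 for *xlnC*, and without GA replicate 2 it was 5.74 and 4.53, so the direction held while the size rested on which GA library was used. The pair stood in a run of 4 genes with consecutive tags that were each called at least 2-fold higher, with log2 fold changes of 5.47 to 7.29.

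Other genes of the group showed no such change. The beta-xylosidase gene *xlnD* (NRRL3_02451) had 256 and 290 FPKM on SBP and 289 and 144 FPKM on GA, with overlapping groups and a log2 fold change of 0.42 (95% interval -0.22 to 1.07). The alpha-glucuronidase gene *aguA* (NRRL3_01069) had 48.5 and 79.9 FPKM on SBP and 75.8 and 44.4 FPKM on GA, at a log2 fold change of 0.14 (95% interval -0.32 to 0.61). *cbhB* (NRRL3_02584), a cellobiohydrolase gene, had 4 and 7 reads on SBP and 3 and 8 reads on GA, too few to read a change.

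Outside the plant cell wall, *creA* (NRRL3_05946) and *glaA* (NRRL3_08300) were both called higher on SBP. CreA is the repressor of carbon catabolism that keeps genes for less favoured carbon sources down. Its transcript had 160 and 204 FPKM on SBP and 18.1 and 16.3 FPKM on GA. The groups lay far apart and replicates close together, and the gene rose with a log2 fold change of 3.44 (SE 0.33, adjusted p = 2.1e-06), or 10.8-fold. *glaA*, the glucoamylase gene of starch breakdown, had 1108 and 734 FPKM on SBP and 361 and 433 FPKM on GA. It rose with a log2 fold change of 1.27 (SE 0.37, adjusted p = 0.015), but was not called without SBP replicate 1 (change 0.77, adjusted p = 0.16) or GA replicate 1 (change 1.02, adjusted p = 0.11).

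Among all 39 named genes 13 were called higher on SBP, 4 lower and 22 were not called, with a median log2 fold change of 0.21. Beside 16.1% and 14.9% over all genes tested, these are 13 of 39 upward and 4 of 39 downward. The names were chosen with earlier results of these data known, so these counts describe the genes and support no statement on the group.

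Among genes with a mean of at least 10 FPKM, the largest changes were in genes without a name here. NRRL3_03087 had 4768 and 4413 FPKM on SBP and 7.97 and 6.00 FPKM on GA. The replicates of each medium lay close together, with a log2 fold change of 9.43 (SE 0.94, adjusted p = 2.8e-06). NRRL3_07947 had 2490 and 1035 FPKM on SBP and 17.8 and 13.8 FPKM on GA, with a log2 fold change of 6.92 (SE 0.44, adjusted p = 5.6e-08). Its SBP libraries were over 2-fold apart and both far above GA, and the change was 5.94 without SBP replicate 1.

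At the lower end, NRRL3_00157 had 1 read in the SBP libraries together and 816 reads in the GA libraries. Scaled to library size the GA level was 864 times the SBP level (95% exact Poisson interval 155 to 34150, counting error only). NRRL3_00139 had 0 and 0 reads on SBP and 67 and 52 reads on GA, at least 21.4-fold lower on SBP against a floor of 3 reads per library. Neither gene was found above 1 read in any SBP library of the comparison.

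Some called genes had consecutive tags, which number the genes in their order along the genome. Of the genes called at least 2-fold lower, 89 of 1056 stood in 18 runs of 4 or more, against 23 of 1094 in 5 such runs among those higher. The longest run of lower genes held 9, with log2 fold changes of -8.07 to -1.20 and a median of -5.36. Its most abundant member had 104 and 78.4 FPKM on SBP and 4059 and 2931 FPKM on GA. The longest run of higher genes held 7, with log2 fold changes of 1.77 to 3.53. No test was made of these run lengths.

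The SBP over GA change was then set beside that of the reference strain, in which 5264 of 10003 genes (52.6%) were called. The strains share no library, and the difference was tested gene by gene as an interaction in the same fit, and it was called for 3733 genes (37.3%). Of the 3103 genes called in the deletion strain, 1286 were called in the same direction in the reference strain and 781 in the opposite direction. The difference was called in 302 of the 1286 and in all 781 of the opposite set. In the latter, called changes of opposite sign add up in the difference, so its call was nearly fixed beforehand. A further 466 genes were called higher and 570 lower in the deletion strain without a call in the reference strain, and the difference itself was called in 243 and 329 of them. In all, the difference was called in 1655 of the 3103 genes (53.3%). These genes were picked on libraries that the difference also uses, which raises this share above that of all genes.

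In the GA pathway the difference between strains was called for 3 of 5 genes, upward for 1 and downward for 2, beside 17.9% of all genes upward and 19.4% downward. The log2 fold change of *gaaD* was 3.01 in the deletion strain and 0.45 in the reference strain, where its level was 11410 ± 231 FPKM on SBP and 8104 ± 884 FPKM on GA (SD, n = 2 each). The difference was 2.57 (SE 0.47, adjusted p = 0.00048). On SBP the gene thus stood at 3807 ± 732 FPKM without *gaaR*, and on GA at 507 ± 189 FPKM. For *gaaA* the change was -0.70 in the deletion strain and 0.79 in the reference strain, a difference of -1.49 (SE 0.42, adjusted p = 0.010). For *gaaB* it was -1.56 in the deletion strain and -0.00 in the reference strain, a difference of -1.56 (SE 0.57, adjusted p = 0.042) that was not called without 6 of the 8 libraries in turn. Over all 8 omissions it lay between -2.47 and -0.93. *gaaX* rose in the reference strain with a log2 fold change of 0.97, and the strains differed by -1.07 (SE 0.31, adjusted p = 0.011). That call ended without GA replicate 1 of the deletion strain or SBP replicate 1 of the reference strain (highest adjusted p = 0.058).

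The reference strain raised all 6 side chain genes on SBP, beside 27.3% of all genes tested that were called higher there, and in 5 of them the change was smaller or opposite in the deletion strain, with the difference called. Over all genes tested the difference was called downward in 19.4% and upward in 17.9%. Among the side chain genes it was widest for *abnC*, at -2.0 in the deletion strain and 1.09 in the reference strain, a difference of -3.09 (SE 0.56, adjusted p = 0.0004) that was -2.26 without GA replicate 2 of the deletion strain. *lacC* followed at 0.48 in the deletion strain and 3.31 in the reference strain, a difference of -2.83 (SE 0.40, adjusted p = 4.4e-05). *abnA* changed by 2.35 in the deletion strain and 4.48 in the reference strain, with a difference of -2.12 (SE 0.53, adjusted p = 0.0046). *lacB* changed by 0.28 in the deletion strain and 1.77 in the reference strain, a difference of -1.49 (SE 0.38, adjusted p = 0.0056). *lacA* changed by 3.32 in the deletion strain and 4.38 in the reference strain. Its difference of -1.07 (SE 0.36, adjusted p = 0.030) was not called without 5 of the 8 libraries in turn. *abfC* was the exception, at 3.07 in the deletion strain and 3.53 in the reference strain, with a difference of -0.45 (95% interval -1.17 to 0.27).

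Of the 5 pentose genes 4 were called higher on SBP in the deletion strain and all 5 in the reference strain, beside 16.1% of all genes in the deletion strain and 27.3% in the reference strain. The difference was called in 3, each time downward, beside 19.4% of all genes. The difference was -1.89 for *ladA* (SE 0.45, adjusted p = 0.0035), -1.64 for *xdhA* (SE 0.35, adjusted p = 0.0014) and -1.02 for *xlnR* (SE 0.30, adjusted p = 0.014). Without GA replicate 1 of the deletion strain that of *ladA* was -1.26. That of *xlnR* was not called without GA replicate 2 of the deletion strain or GA replicate 1 of the reference strain. For *xkiA* the difference was -0.18 with a 95% interval of -1.06 to 0.69, and for *araR* -0.61 with an interval of -1.18 to -0.04 (adjusted p = 0.11).

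The xylan genes divided. *xlnD* had a log2 fold change of 0.42 in the deletion strain and 3.40 in the reference strain, a difference of -2.98 (SE 0.48, adjusted p = 0.00014). *aguA* had 0.14 in the deletion strain and 3.09 in the reference strain, a difference of -2.95 (SE 0.36, adjusted p = 1e-05). In both genes the deletion strain's GA level was above that of the reference strain. It was 216 ± 103 FPKM for *xlnD* and 60.1 ± 22.2 FPKM for *aguA*, against 54.3 ± 8.46 and 7.34 ± 3.08 FPKM in the reference strain (SD, n = 2 each). On SBP the mean of *xlnD* was 273 FPKM in the deletion strain, below 592 FPKM in the reference strain. That of *aguA* was 64.2 FPKM in the deletion strain and 64.3 FPKM in the reference strain. *xlnC* and *axhA* had differences of the other sign, 2.38 (SE 0.94, adjusted p = 0.059) and 1.72 (SE 0.88, adjusted p = 0.14). Without GA replicate 1 of the deletion strain these were called, at 5.78 (adjusted p = 0.00021) and 4.72 (adjusted p = 0.00029).

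**Figure D3:**
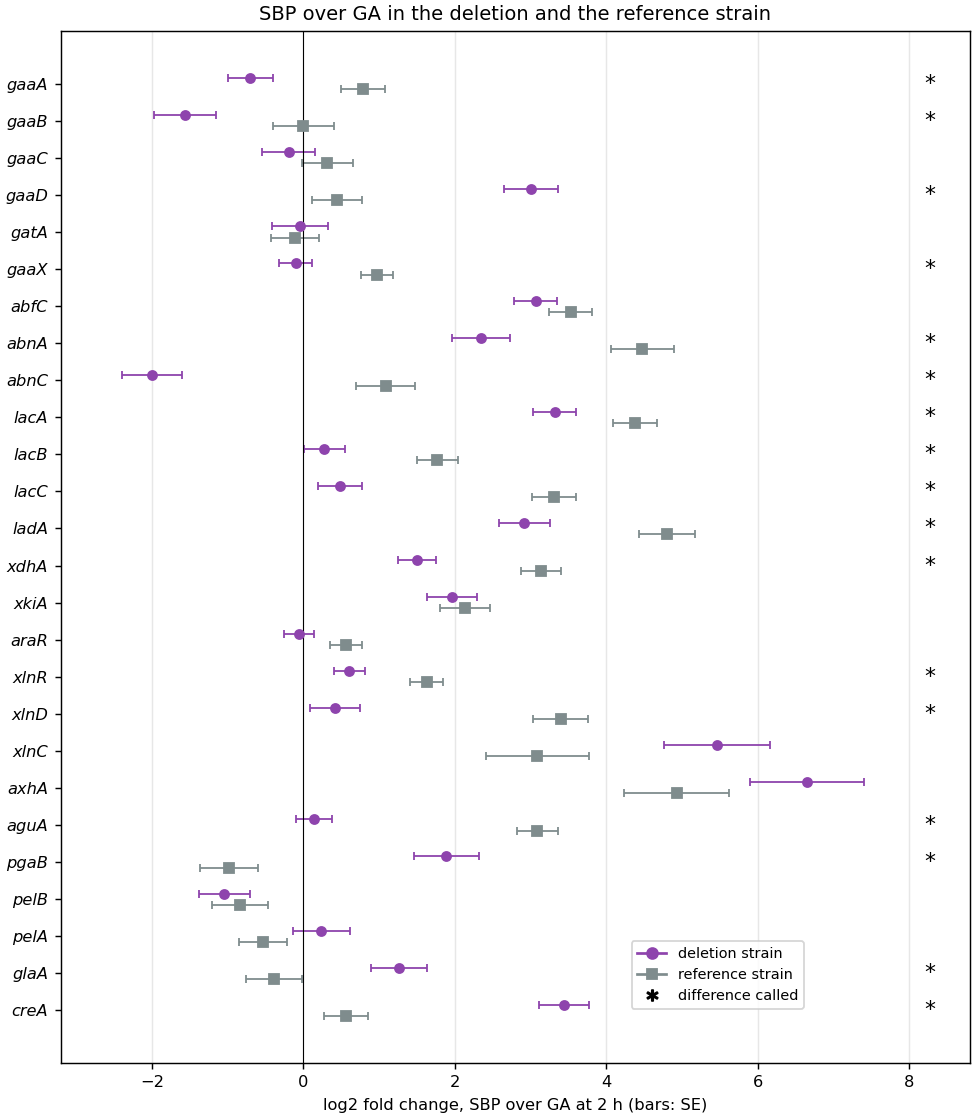
Log2 fold change of SBP over GA at 2 h for 26 named genes in the deletion strain (purple circles) and the reference strain (grey squares), with bars of 1 SE; an asterisk marks genes whose difference between strains was called. *abfC*, *xkiA* and *gatA* lie together in both strains, while *abnC*, *gaaD*, *pgaB* and *creA* lie apart.

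Genes with a larger rise in the deletion strain included *creA*, whose log2 fold change was 3.44 in the deletion strain and 0.57 in the reference strain, a difference of 2.87 (SE 0.43, adjusted p = 7.8e-05). The levels show where this lay: on SBP *creA* stood at 182 ± 31.2 FPKM in the deletion strain and 297 ± 95 FPKM in the reference strain, and on GA at 17.2 ± 1.28 FPKM in the deletion strain and 193 ± 35.4 FPKM in the reference strain (SD, n = 2 each). The GA level of the deletion strain thus stood apart from the other groups. *pgaB* changed by 1.89 in the deletion strain and -0.98 in the reference strain, a difference of 2.87 (SE 0.57, adjusted p = 0.00087). *glaA* changed by 1.27 in the deletion strain and -0.39 in the reference strain. Its difference of 1.67 (SE 0.52, adjusted p = 0.019) was not called without 5 of the 8 libraries in turn (highest adjusted p = 0.090).

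The unnamed genes that rose most did so in both strains. They were picked for their rise in the same deletion libraries, which favours a larger change there than in the reference strain. The p-values of their differences do not allow for this. NRRL3_03087 changed by 9.43 in the deletion strain and 6.01 in the reference strain, a difference of 3.42 (SE 0.98, adjusted p = 0.012). NRRL3_07947 changed by 6.92 in the deletion strain and 3.36 in the reference strain, a difference of 3.55 (SE 0.59, adjusted p = 0.00019) that was 2.58 without SBP replicate 1 of the deletion strain. In the longest run of lower genes 7 of the 9 were also called lower in the reference strain, beside 2534 of all 10003 genes. The difference was called in 5 of the 9, beside 37.3% of all genes. All 7 genes of the longest run of higher genes were called higher in the reference strain too, beside 27.3% of all genes, with the difference called in 3. Both runs were picked by their calls in the deletion strain, so these counts only describe them.

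The deletion strain on SBP was also sampled at 8 h and 24 h, which gives a scale for the 2 h levels. Both 8 h libraries carried the 24 *gaaR* reads given above, whose part in the 8 h levels was not tested. *gaaD* had 1596 and 1273 FPKM at 8 h and 404 and 414 FPKM at 24 h on SBP, so the 24 h values lay between its 2 GA values at 2 h. *ladA* had 397 and 341 FPKM at 8 h and 26.9 and 27.4 FPKM at 24 h, and *lacA* had 1994 and 2579 FPKM at 8 h and 46.1 and 54.7 FPKM at 24 h. For these genes the late SBP level was near or below the GA level at 2 h. *abnA*, in contrast, had 4939 and 4815 FPKM at 8 h before 18.3 and 51.0 FPKM at 24 h.

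*abnC* ran the other way over time, with 1064 and 969 FPKM at 8 h and 2269 and 2462 FPKM at 24 h, and the 24 h values lay inside the range of its GA libraries at 2 h. *axhA* had 4519 and 4164 FPKM at 8 h and 215 and 256 FPKM at 24 h, and *glaA* had 3589 and 3398 FPKM at 8 h and 134 and 187 FPKM at 24 h. *creA* had 101 and 169 FPKM at 8 h and 67.4 and 80.2 FPKM at 24 h. Every SBP library of the deletion strain at 2, 8 and 24 h was therefore above its 2 GA libraries in *creA*. NRRL3_03087 was high only at the earliest time, with 4.0 and 32.3 FPKM at 8 h and 3.49 and 4.08 FPKM at 24 h on SBP. These times have no GA library beside them, and no test was made between them here.

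**Figure D4:**
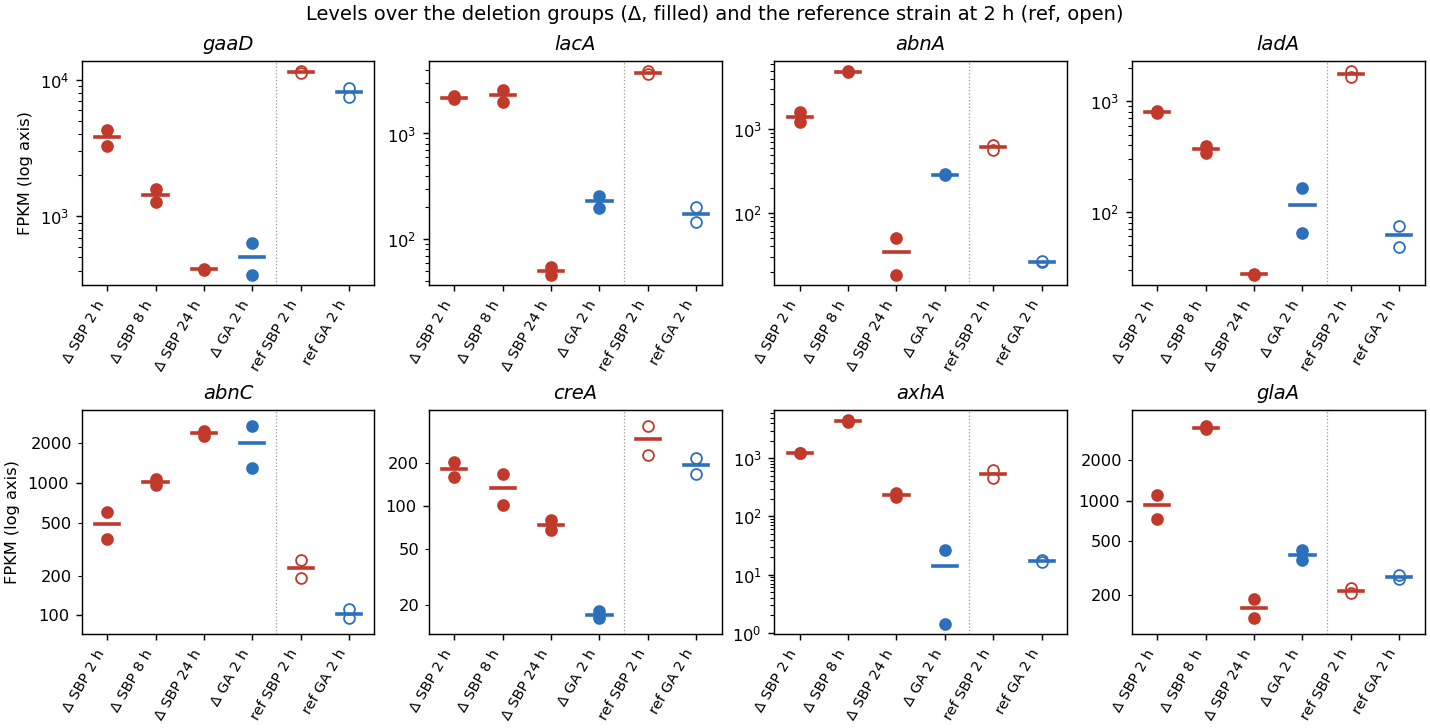
FPKM (log axis, each panel with its own range) of 8 genes in the deletion strain (filled) on SBP at 2, 8 and 24 h and on GA at 2 h, and in the reference strain at 2 h (open); points are the 2 libraries and lines their means. *creA* is lowest in the deletion strain on GA, at 18.1 and 16.3 FPKM, and *abnC* climbs over time on SBP to the range of GA.

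Leaving out 1 library at a time moved the sizes of some changes more than others. *lacA* stayed between 3.21 and 3.42, *creA* between 3.37 and 3.51 and *gaaD* between 2.63 and 3.31 on the log2 scale, all called each time. Of the named genes called, *axhA* and *xlnC* had the widest ranges, from 5.74 to 9.65 and from 4.53 to 8.87. *pgaX* and *pgxB* crossed 0, with ranges of -5.17 to 1.6 and -3.02 to 2.35, and neither was called with all libraries.

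**Figure D5:**
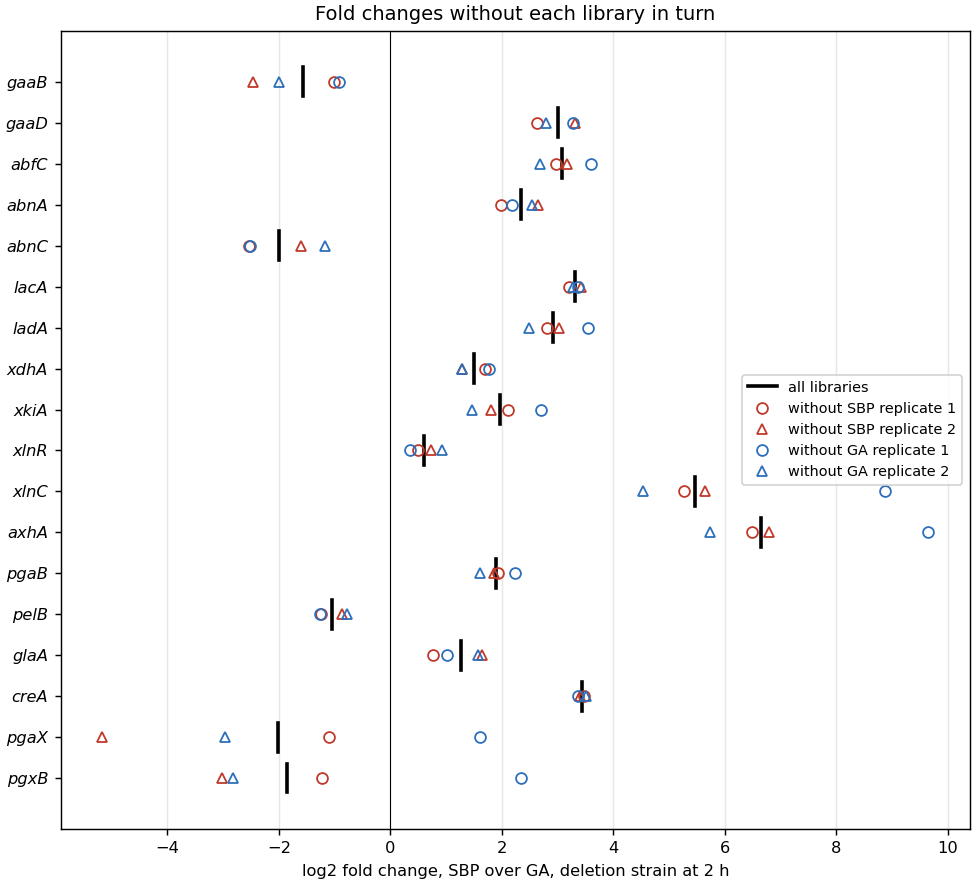
Log2 fold change of SBP over GA in the deletion strain at 2 h for 18 named genes with all libraries (black bar) and without each of the 4 libraries in turn (open circles for replicate 1, open triangles for replicate 2, red for SBP and blue for GA). Changes of *lacA* and *creA* hardly move, while *axhA*, *xlnC*, *pgaX* and *pgxB* shift most without GA replicate 1.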

How the data were processed

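Per the labels, total RNA of mycelium was sequenced with Illumina protocols in 16 libraries, 8 groups of 2. Each file holds 1 library and gives every gene listed an expected count from RSEM, an FPKM value and a length, per the file headers. RSEM, Bowtie2 and BWA are named in the submitters' processing notes, and their versions and genome build are not given in the sources used here. The authors deposited expected counts that carry no normalization, and 548 of 168277 of them (0.3%) were not whole. Deposited beside them are FPKM values, in which the authors' software scales reads to gene length and library total. Lengths were multiples of 3 in 100% of genes, so they are coding lengths. A gene not listed in a file was taken as 0 reads, and 11580 genes were listed in any library.

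Counts were rounded, scaled by TMM and filtered with filterByExpr, which kept 10003 genes. The two-sided quasi-likelihood F test of edgeR 4.0.16 (R 4.3.3) was applied to a single fit of group means to all 16 libraries, with 8 residual and 7.8 prior degrees of freedom and a common dispersion of 0.041. Adjusted p-values are Benjamini-Hochberg values over all genes tested, and a gene was called under 0.05. The SE of a log2 fold change was taken from its F value, and a 95% interval spans the normal quantile times the SE on either side. The step was tested on simulated data. Alternatives were other scalings, no filter, the compared libraries alone, replicate blocks, DESeq2 1.42.0, limma 3.58.1 on log2 of FPKM plus 1 or 0.1, and each library left out. Python 3.11.15 with pandas 2.3.3, scipy 1.17.1 and matplotlib 3.10.9 did the rest. Strandedness and the treatment of reads shared by near-identical genes are not given in the sources used here, so levels of enzyme genes with close relatives are uncertain to that extent.

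No table used here pairs the NRRL3 tags with names. All 23 tags of a core list were recalled from publications. Of 25 further recalled tags, 5 were kept because the coding length equals the gene's span in RefSeq's table for a different strain (assembly ASM285v2), and 11 were added outside that rule, after the files were opened, because the coding length equals the recalled protein length. The other 9 were not used. On 6 contigs of that table, 74 of 74 gene pairs kept the tags' order or its reverse along the contig. For *gaaC* and *xlnR* that table's span is below the coding length. No coordinates are given, since no genome of this strain was used. Named were these 39 genes and, by tag alone, the 2 called genes with the highest and the 2 with the lowest log2 fold change among those at least 2-fold apart whose mean reached 10 FPKM. The groups, members and lists were chosen with earlier results of these data known. No marker list for conidia was tied to tags, so that check was not made.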

Additional observations from a re-analysis of the deposited data

Results flagged for a closer look

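The interaction test of the difference between strains picked out 21 of the 43 genes followed (39 named and 4 by tag), against 37.3% of all genes tested; each value is the log2 fold change of SBP over GA in the deletion strain minus that in the reference strain. In the GA genes it was 2.57 for *gaaD*, -1.49 for *gaaA*, -1.56 for *gaaB*, -1.07 for *gaaX* and -4.44 for *gaaR*. As *gaaR* is the deleted gene, its value uses the few reads left in the deletion libraries and is not read as a response to the carbon source. In the side chain genes it was -3.09 for *abnC*, -2.83 for *lacC*, -2.12 for *abnA*, -1.49 for *lacB* and -1.07 for *lacA*. In the backbone genes it was 2.87 for *pgaB* and -3.07 for *pgxB*. In the pentose genes it was -1.89 for *ladA*, -1.64 for *xdhA* and -1.02 for *xlnR*. In the xylan genes it was -2.98 for *xlnD* and -2.95 for *aguA*. For *creA* it was 2.87, for *glaA* 1.67, for NRRL3_03087 3.42 and for NRRL3_07947 3.55. The genes given by tag were picked for their change in the deletion strain, which favours such a difference. The values of *gaaR* and *pgxB* rest on GA replicate 1 of the deletion strain, without which they were -0.61 and 1.14, neither called. The call of *pgxB* (adjusted p = 0.047) also ended without SBP replicate 1 of the deletion strain or any single library of the reference strain. It ended with DESeq2 (adjusted p = 0.13) and with limma (0.24 to 0.43) as well.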

How the results depend on the processing

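With all 16 libraries in the fit 3103 genes were called. The count was 1413 (642 higher, 771 lower) with only the 4 libraries compared and 1082 (478 and 604) with a replicate block added there. A replicate block over all libraries, set for each strain and time, gave 1487 (720 and 767). It left 2391 genes called for the difference between strains. That block takes up all scatter within the 8 h and 24 h groups, so its spread came from the 2 h libraries alone. Replicate blocks also leave fewer residual degrees of freedom than the same fit without them, so these counts are no test of pairing. Same-numbered libraries of SBP and GA deviated against each other in the deletion strain (correlation -0.40 over 10003 genes; 0.08 in the reference strain), so the numbers were not taken to pair the samples, and a crossed block, chosen after seeing the data, gave 3276. DESeq2 called 3070 genes and limma 2805 to 2931. Without each library the count was 2300 to 2706, and without both libraries with *gaaR* reads, also chosen later, 2233. For the difference it was 2983 to 3587, and for the reference strain 4031 to 4450. Among 699 values of 42 results in the main comparison, 37 changed sign, none of a called gene, and 16 of 21 called results kept their call in every alternative, the others being *gaaB*, *rglA*, *pelB*, *xlnR* and *glaA*. Of 21 called differences between strains, 12 did. Those of *gaaA* (adjusted p = 0.082 and 0.089) and *lacB* (0.056 and 0.057) lost their call with the 2 replicate blocks alone. Those of *gaaB*, *gaaR*, *gaaX*, *pgxB*, *lacA*, *xlnR* and *glaA* lost it with a replicate block and also without some library. With only the compared libraries *gaaB* (adjusted p = 0.1), *pgxB* (0.081) and *lacA* (0.069) lost it too. Upper quartile scaling ended the calls of *gaaB* (0.055) and *pgxB* (0.053). With limma *gaaB* (0.053 to 0.077) and *pgxB* (0.24 to 0.43) were not called, nor was *gaaR* with FPKM plus 0.1 (0.061).

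With libraries left out, 1 at a time or both of those with *gaaR* reads, values crossed 0 for *gaaC* (-0.60 to 0.02), *gatA* (-0.76 to 0.52), *gaaR* (-7.09 to 2.43), *gaaX* (-0.30 to 0.14), *pgaX* (-5.17 to 1.6), *pgxB* (-3.02 to 2.35), *pgxC* (-0.87 to 0.76), *pelA* (-0.19 to 0.58), *pmeC* (-0.66 to 0.46), *xghA* (-0.96 to 3.32), *araR* (-0.25 to 0.12), *aguA* (-0.09 to 0.40) and *cbhB* (-0.98 to 0.79). *pmeC* was at -0.05 and -0.00 with the 2 replicate blocks and -0.04 with the crossed one, and *xghA* at 0.14 with the block over all libraries. With limma *pmeC* was at -0.05 to -0.09, *xghA* at 0.11 to 0.63 and *cbhB* at 0.01 to 0.03. Among the 26 differences followed under every alternative, values crossed 0 for *pgxB* (-4.23 to 1.14), *abfC* (-0.84 to 0.17), *xkiA* (-0.67 to 0.55) and *pelB* (-0.53 to 0.18). The other differences, followed here only without 1 library at a time, crossed 0 for *pgaX* (-5.55 to 1.22), *gatA* (-0.65 to 0.63), *xghA* (-2.72 to 1.08), *pgaE* (-1.18 to 0.18), *pmeA* (-0.31 to 0.94), *pmeC* (-0.97 to 0.05), *cbhB* (-1.67 to 0.02) and NRRL3_00157 (-6.16 to 0.07). The cause was not tested. Genes under about 10 reads per library are limited by depth. Some changes not called in the main fit were called in an alternative, such as *gaaA* with DESeq2 (adjusted p = 0.043) and the crossed block (0.012). The difference of *xlnC* was called without the filter (0.038) and with the replicate block on the compared libraries (0.041). It was also called with limma on log2 of FPKM plus 1 (0.041), but not with DESeq2 or other scalings.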

Other observations

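The 781 genes called in opposite directions in the strains divide into 383 that were higher on SBP in the deletion strain and lower in the reference strain, and 398 that were lower in the deletion strain and higher in the reference strain. Genes called in the reference strain without a call in the deletion strain comprised 1571 that were higher and 1626 that were lower on SBP in the reference strain. The difference itself was called in 957 of the 1571 and in 1000 of the 1626, so for the remainder a change of the same size in the deletion strain was not excluded by the test.

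Some other cell wall genes had higher levels at 8 h than at 2 h on SBP in the libraries labelled as the deletion strain. Both 8 h libraries held 24 reads of *gaaR*, beside 0 and 12 reads at 2 h and 0 in both 24 h libraries, and the part of this in the levels was not tested. *xghA* had 2.04 and 1.1 FPKM at 2 h, 82.7 and 65.4 FPKM at 8 h and 3.48 and 5.63 FPKM at 24 h. *pmeC*, with the neighbouring tag, had 2.78 and 6.89 FPKM at 2 h, 56.5 and 49.4 FPKM at 8 h and 1.45 and 2.67 FPKM at 24 h. *cbhB* had 0.56 and 1.16 FPKM at 2 h, 144 and 114 FPKM at 8 h and 42.2 and 151 FPKM at 24 h. *xlnC* had 382 and 358.1 FPKM at 2 h, 2807 and 2862 FPKM at 8 h and 108 and 109 FPKM at 24 h. At 24 h *xlnC* and *pmeC* were thus below their 2 h levels, *xghA* slightly above and *cbhB* far above. No test was made between the times here.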
